A study of Mus musculus with 12 samples.

Results

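The Notch pathway genes Notch1, Notch2, Rbpj, Hes1 and Dtx1, together with Esam, a surface protein that marks a Notch-dependent subset of splenic type 2 conventional dendritic cells (cDC2), were followed by gene name through the 4 groups of the study. All 6 genes were present among the 55322 genes of the table, and 5 of them reached 1 FPKM in at least 3 libraries and entered the tests, which covered 14538 genes. RNA came from cDC2 of mouse spleen, 3 libraries a group. Every group had been given lipopolysaccharide (LPS) at 5 mg/kg into the peritoneum 4 days earlier, and the mice were 7 to 8 weeks old. CLP-cDC2 and CDP-cDC2 were CD45.2+ cells grown from wild-type common lymphoid progenitors (CLPs) or common dendritic cell progenitors (CDPs) placed by injection in the marrow of B6.SJL hosts (CD45.1+), which kept their own haematopoietic cells. Il7r-Cre;Rosa26-lsl-tdTomato mice gave L-cDC2, which were tdTomato+, and M-cDC2, which were tdTomato-. In these mice any cell with a history of Il7r-driven Cre keeps the reporter, whatever the progenitor it came from. The question of the series was how alike cDC2 made from CLPs and L-cDC2 are.

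Notch receptors are cut by gamma-secretase after binding a Delta or Jagged ligand on a neighbouring cell, and the freed intracellular domain joins the DNA-binding protein RBPJ to switch on targets such as Hes1 and Dtx1. In mouse spleen, Notch2 and RBPJ are required for the cDC2 that carry high ESAM and CD4, whereas ESAM-low cDC2 carry more myeloid genes. Levels are in FPKM, a read count scaled to the gene's length and to the library's depth, which allows levels of genes of different length to be compared.

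Depth, as recovered from the steps of the FPKM values, ran from 26543343 to 73732230 assigned reads a library. The cDC2 marker genes Flt3 (86.2 to 121 FPKM), Itgax, Sirpa and Zbtb46 were detected in all 12 libraries, though not at like levels. Sirpa averaged 41.0 ± 2.69 FPKM in CLP-cDC2, 110 ± 46.3 in CDP-cDC2, 93.9 ± 22.0 in L-cDC2 and 69.5 ± 10.9 in M-cDC2 (SD, n = 3 each). Zbtb46 averaged 8.59 ± 0.84 FPKM in CLP-cDC2, 18.2 ± 5.89 in CDP-cDC2, 21.4 ± 3.34 in L-cDC2 and 19.1 ± 2.05 in M-cDC2. Both were called lower in CLP-cDC2 than in CDP-cDC2 and in L-cDC2 (limma adjusted p = 0.0017 to 0.0099). Summed markers of cDC1, the other conventional subset, were 132 to 184 FPKM in CLP-cDC2, 84.7 to 128 in CDP-cDC2, 102 to 120 in L-cDC2 and 160 to 179 in M-cDC2. B cell, NK cell and T cell markers were highest in L-cDC2, whose summed NK markers stood at 180 to 264 FPKM against 0.715 to 1.62 FPKM in M-cDC2. CDP-cDC2 replicate 3 and M-cDC2 replicate 3 stood apart from the rest, at 50.6 on principal component 2 for CDP-cDC2 replicate 3 and 40.5 on component 3 for M-cDC2 replicate 3. Whether replicates are separate animals is not in the labels. The p-values therefore reflect the spread between these samples alone, which may be technical. In bulk libraries fewer cells of a type and less RNA per cell cannot be told apart.

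Per length, Dtx1 had the highest mean level of the 6 genes over the 12 libraries, at 57.3 FPKM, above 90.7% of tested genes. Esam followed at 13.2 FPKM, Notch2 at 8.21, Hes1 at 7.92 and Rbpj at 3.23, and Notch1 was lowest at 0.162 FPKM. Notch2 was thus the receptor with the most RNA, and the related receptors Notch4 (0.401 FPKM) and Notch3 (0.00812 FPKM) were also under 1 FPKM. Hes1 varied most among the 5 tested members, with a coefficient of variation of 85.1% over the libraries, against 25.4% for Rbpj, which varied least.

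**Figure D1:**
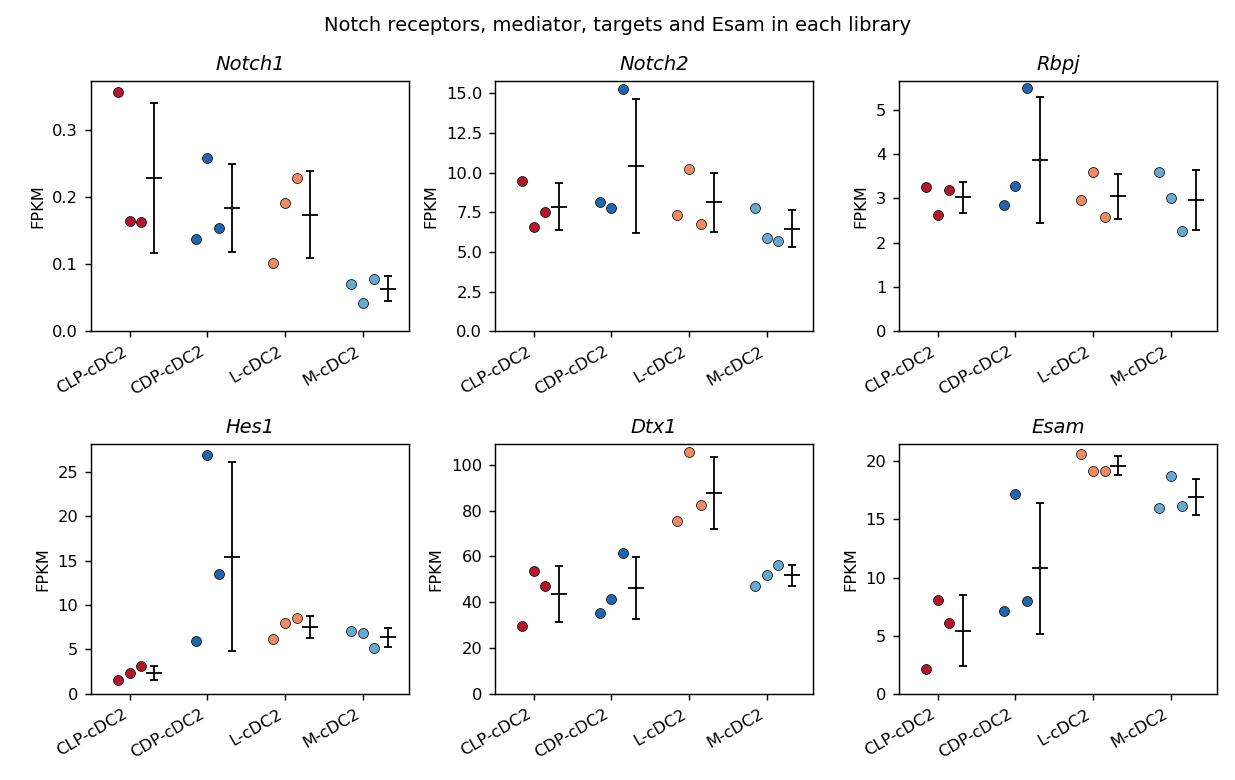
FPKM of the 6 genes in each library (points, 3 a group, replicates 1 to 3 from left to right) with the group mean and SD (bars), linear axes from 0. Hes1 is lowest in CLP-cDC2 (1.62 to 3.18 FPKM), Dtx1 is highest in L-cDC2 (75.4 to 105 FPKM), and Esam is higher in the L-cDC2 and M-cDC2 libraries (16.0 to 20.6 FPKM) than in the CLP-cDC2 libraries (2.14 to 8.07 FPKM).

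Among the receptors, Notch2, the receptor needed by ESAM-high cDC2 (ENSMUSG00000027878, deposited position chromosome 3 from 97920843 to 98057677, plus strand), had 9.46, 6.58 and 7.52 FPKM in CLP-cDC2 and 8.15, 7.79 and 15.3 FPKM in CDP-cDC2. It had 7.33, 10.3 and 6.79 FPKM in L-cDC2 and 7.80, 5.89 and 5.71 FPKM in M-cDC2. CDP-cDC2 replicate 3 held the highest value, and every pair of groups overlapped. The order of the means was CDP-cDC2, L-cDC2, CLP-cDC2 and M-cDC2 (10.4, 8.13, 7.85 and 6.47 FPKM), and no neighbours in it differed beyond their spread. The fitted difference in log2(FPKM + 1) was 0.28 ± 0.24 for L-cDC2 minus M-cDC2 (SE, limma adjusted p = 0.78; 95% interval -0.24 to 0.80) and -0.32 ± 0.24 for CLP-cDC2 minus CDP-cDC2 (adjusted p = 0.42; -0.84 to 0.20). An exon of Notch2 overlaps Gm42820, a gene model of type TEC, on the same strand (0.635 to 2.44 FPKM), so reads there could be split between them.

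Notch1, the receptor that drives T cell commitment (ENSMUSG00000026923, deposited position chromosome 2 from 26347915 to 26406675, minus strand), did not pass the filter on low values. It had 0.357, 0.165 and 0.162 FPKM in CLP-cDC2 and 0.138, 0.258 and 0.154 FPKM in CDP-cDC2. It had 0.101, 0.191 and 0.228 FPKM in L-cDC2 and 0.0704, 0.0421 and 0.0775 FPKM in M-cDC2. These levels rested on 29.5 to 239 reads a library, and the M-cDC2 libraries lay below all others. The ratio of means was 2.74 for L-cDC2 over M-cDC2 and 2.90 for CDP-cDC2 over M-cDC2, each with an exact two-sided permutation p = 0.10, the smallest that 3 samples against 3 allow. In the fit without the filter the difference between L-cDC2 and M-cDC2 was 0.14 (limma adjusted p = 0.83). The antisense genes 0610009E02Rik and Gm13568 overlap exons of Notch1, and without a stated strand setting their reads cannot be told apart. T cell markers, whose cells use Notch1, summed to 24.7 to 33.0 FPKM in L-cDC2, against 0.773 to 2.92 FPKM in M-cDC2. Most of the L-cDC2 sum was Lck, Trbc1 and Trbc2, while Cd3d, Cd3e and Cd3g were each under 1 FPKM in every L-cDC2 library. The part of T cells in the Notch1 values was not tested.

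Rbpj, the DNA-binding mediator (ENSMUSG00000039191, deposited position chromosome 5 from 53623494 to 53814704, plus strand), was the steadiest member. It had 3.26, 2.63 and 3.19 FPKM in CLP-cDC2 and 2.85, 3.27 and 5.49 FPKM in CDP-cDC2. It had 2.96, 3.59 and 2.59 FPKM in L-cDC2 and 3.61, 3.01 and 2.26 FPKM in M-cDC2. All groups overlapped, and the highest value was again that of CDP-cDC2 replicate 3. The means ran in the order CDP-cDC2, L-cDC2, CLP-cDC2 and M-cDC2 (3.87, 3.05, 3.03 and 2.96 FPKM), with no difference beyond the spread. The log2 difference was 0.04 for L-cDC2 minus M-cDC2 (95% interval -0.41 to 0.49) and -0.24 for CLP-cDC2 minus CDP-cDC2 (-0.69 to 0.21), with limma adjusted p = 0.97 and 0.49. The processed pseudogene Rbpj-ps3 is listed at 1.88 to 6.11 FPKM, so the split of reads between Rbpj and this copy is uncertain. Notch2 and Rbpj had like profiles, with a Pearson correlation of log2(FPKM + 1) of 0.90 over the 12 libraries and 0.92 after group means were removed, a description of libraries that share depth and quality with both genes.

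Hes1, a transcriptional repressor and direct Notch target (ENSMUSG00000022528, deposited position chromosome 16 from 29883202 to 29886614, plus strand), showed the widest differences among groups. It had 1.62, 2.38 and 3.18 FPKM in CLP-cDC2 and 5.90, 26.9 and 13.4 FPKM in CDP-cDC2. It had 6.18, 7.93 and 8.52 FPKM in L-cDC2 and 7.10, 6.81 and 5.12 FPKM in M-cDC2. The CLP-cDC2 libraries lay below every library of the other 3 groups, and CDP-cDC2 was the most scattered group. The means ran CDP-cDC2, L-cDC2, M-cDC2 and CLP-cDC2 (15.4 ± 10.6, 7.55 ± 1.22, 6.34 ± 1.07 and 2.39 ± 0.78 FPKM, SD, n = 3 each). The first 3 in that order overlapped, and M-cDC2 and CLP-cDC2 did not.

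Dtx1, an E3 ubiquitin ligase of the Deltex family that is both a target and a modifier of Notch (ENSMUSG00000029603, deposited position chromosome 5 from 120818267 to 120849992, minus strand), was highest in L-cDC2. It had 29.8, 53.7 and 47.1 FPKM in CLP-cDC2 and 35.4, 41.6 and 61.4 FPKM in CDP-cDC2. It had 75.4, 105 and 82.4 FPKM in L-cDC2 and 47.2, 51.9 and 56.4 FPKM in M-cDC2. Every L-cDC2 library lay above every library of the other groups, which overlapped one another. The means ran L-cDC2, M-cDC2, CDP-cDC2 and CLP-cDC2 (87.7 ± 15.7, 51.8 ± 4.63, 46.1 ± 13.6 and 43.5 ± 12.3 FPKM, SD, n = 3 each).

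Esam, an adhesion molecule of the immunoglobulin superfamily (ENSMUSG00000001946, deposited position chromosome 9 from 37439374 to 37449615, plus strand) had its lowest levels in CLP-cDC2 and its highest in L-cDC2. It had 2.14, 8.07 and 6.12 FPKM in CLP-cDC2 and 7.13, 17.2 and 7.99 FPKM in CDP-cDC2. It had 20.6, 19.1 and 19.2 FPKM in L-cDC2 and 16.0, 18.8 and 16.2 FPKM in M-cDC2. The CLP-cDC2 libraries lay below all L-cDC2 and M-cDC2 libraries, and CDP-cDC2 replicate 2 alone of the transferred libraries reached the M-cDC2 range. The means ran L-cDC2, M-cDC2, CDP-cDC2 and CLP-cDC2 (19.6 ± 0.83, 17.0 ± 1.55, 10.8 ± 5.60 and 5.44 ± 3.02 FPKM, SD, n = 3 each). Esam is also made by endothelium and platelets. Summed levels of 6 endothelial genes were 1.37 to 2.73 FPKM in CLP-cDC2, 2.02 to 3.21 in CDP-cDC2, 1.17 to 1.69 in L-cDC2 and 0.943 to 1.66 in M-cDC2, and those of 5 platelet genes were 0.0054 to 1.30 FPKM over all libraries. The endothelial receptor Kdr, the only 1 of the 6 that was tested, averaged 0.22 ± 0.10 FPKM in CLP-cDC2 and 1.69 ± 0.64 FPKM in CDP-cDC2 (-1.11, limma adjusted p = 0.0035). Of the untested genes, Vwf went the same way, at 0.19 FPKM in CLP-cDC2 and 0.71 FPKM in CDP-cDC2. Egfl7 went the other way, at 1.35 FPKM in CLP-cDC2 and 0.33 FPKM in CDP-cDC2. The part of these cells in the Esam level was not tested.

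RefSeq promoters on GRCm38.p6, from 250 bases before to 50 after the transcript start, were at hand for 4 of the 6 genes, Notch1, Notch2, Rbpj and Dtx1. They were searched on both strands for TGGGAA, the core that RBPJ binds, which 25.6% of 32851 mouse promoters hold, and for GTGGGAA, which contains that core and is held by 6.38%. The Dtx1 promoter (chr5:120711620-120711919, minus strand) is shown because Dtx1 has the highest level of the 6 genes, that of Notch2 (chr3:98013288-98013587, plus strand) because it is the receptor with the most RNA, and that of Rbpj (chr5:53590096-53590395, plus strand) because it held the core. Capitals mark TGGGAA or its reverse complement, and each sequence is written 5′ to 3′ on the strand of its gene.
Dtx1: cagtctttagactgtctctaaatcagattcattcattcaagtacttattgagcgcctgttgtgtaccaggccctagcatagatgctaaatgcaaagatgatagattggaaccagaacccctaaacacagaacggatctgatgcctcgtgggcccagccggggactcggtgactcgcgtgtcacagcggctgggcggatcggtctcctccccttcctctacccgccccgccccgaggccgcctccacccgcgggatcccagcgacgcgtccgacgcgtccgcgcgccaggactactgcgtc
Notch2: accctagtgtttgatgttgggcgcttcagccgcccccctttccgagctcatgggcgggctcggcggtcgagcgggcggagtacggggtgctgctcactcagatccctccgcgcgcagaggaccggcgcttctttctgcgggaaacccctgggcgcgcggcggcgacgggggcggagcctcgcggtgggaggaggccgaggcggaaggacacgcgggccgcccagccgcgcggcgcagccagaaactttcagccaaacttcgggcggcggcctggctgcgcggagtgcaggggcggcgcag
Rbpj: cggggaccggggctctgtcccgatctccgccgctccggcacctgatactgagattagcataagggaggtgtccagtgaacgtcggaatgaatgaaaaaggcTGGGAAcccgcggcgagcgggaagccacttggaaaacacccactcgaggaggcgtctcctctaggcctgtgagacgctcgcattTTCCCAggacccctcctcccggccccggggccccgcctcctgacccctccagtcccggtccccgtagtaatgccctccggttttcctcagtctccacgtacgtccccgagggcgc
This Rbpj promoter held 2 matches, the first base of which lies 149 bases before the start on the gene's strand and 65 bases before it on the other strand. A second annotated Rbpj promoter overlaps this window, and its single match, 205 bases before its own start, is the site on the other strand already counted. Notch1, Notch2 and Dtx1 held none in these windows, and no member held GTGGGAA. A match is a description of these letters only.

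L-cDC2 were first compared with M-cDC2, the tdTomato+ with the tdTomato- cells of the reporter mice. None of the 5 tested members was called (0 of 5), where 1.73% of the 14538 genes were, 1.29% higher and 0.44% lower. Dtx1 stood at 87.7 FPKM in L-cDC2 and 51.8 FPKM in M-cDC2, which differed on the log2 scale by 0.74 ± 0.23 (SE, unadjusted p = 0.0071, limma adjusted p = 0.23), higher in 3 of 3 libraries. Esam stood at 19.6 FPKM in L-cDC2 and 17.0 FPKM in M-cDC2, a difference of 0.20 ± 0.35 (adjusted p = 0.88). Hes1 stood at 7.55 FPKM in L-cDC2 and 6.34 FPKM in M-cDC2, a difference of 0.22 ± 0.38 (adjusted p = 0.88). The libraries did not overlap for Notch1, Dtx1 and Esam, 3 of 6 members, as for 19.4% of tested genes. B cell markers, which include genes of cells known to express Dtx1, summed to 129 to 136 FPKM in L-cDC2 against 36.7 to 48.7 FPKM in M-cDC2, and Cd79a stood at 50.9 to 57.8 FPKM in L-cDC2 against 0.139 to 0.594 FPKM in M-cDC2. The marginal zone B cell genes, which B cells with Notch2 signalling express, summed to 29.3 to 37.2 FPKM in L-cDC2 against 26.2 to 29.5 FPKM in M-cDC2, nearly all of it Cd1d1. Cr2 stood at 0.23 to 0.416 FPKM in L-cDC2 against 0.0762 to 0.202 FPKM in M-cDC2. The part of B cell RNA in the Dtx1 level was not tested. With only the 2 groups in the fit, or with array weights, Dtx1 was called (limma adjusted p = 0.033 and 0.014).

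After transfer, cells grown from CLPs were set against cells grown from CDPs. Hes1 fell to 2.39 FPKM in CLP-cDC2, against 15.4 FPKM in CDP-cDC2 (log2 scale: -2.08 ± 0.38, SE, with limma adjusted p = 0.0041). Hes1 was the 1 of 5 tested members that was called, where 13.1% of all tested genes were, 7.02% higher and 6.12% lower, and it was lower in 3 of 3 libraries. The libraries of Hes1 alone among the 6 members did not overlap, as for 29.7% of tested genes. The call held without any single library, with the difference between -2.59 and -1.58 (adjusted p up to 0.021), and when replicate 3 of both CDP-cDC2 and M-cDC2 was left out (-2.06, adjusted p = 0.016). Without CDP-cDC2 replicate 2, which held the highest Hes1 level, the difference was -1.58. Esam stood at 5.44 FPKM in CLP-cDC2 and 10.8 FPKM in CDP-cDC2, a difference of -0.91 ± 0.35 that missed the threshold (adjusted p = 0.11; 95% interval -1.67 to -0.14), and passed it with array weights (adjusted p = 0.018). Dtx1 stood at 43.5 FPKM in CLP-cDC2 and 46.1 FPKM in CDP-cDC2, a difference of -0.09 ± 0.23 (adjusted p = 0.83; -0.58 to 0.41). Red pulp macrophage genes summed to 0.61, 70.7 and 1.48 FPKM in CLP-cDC2 and to 77.9, 33.9 and 31.0 FPKM in CDP-cDC2. C1qb was the largest part in CLP-cDC2 replicate 2 and in CDP-cDC2, and was not called (limma adjusted p = 0.13). C1qa and Spic were called lower in CLP-cDC2, 2 of 4 tested. Of the cDC2 markers 6 of 8 were called lower in CLP-cDC2 (Sirpa, Zbtb46, Itgam, Itgax, H2-Ab1 and Cd74), and of the tested cDC1 markers 4 of 5 were called higher, Cd8a (1.22), Irf8 (1.1), Clec9a (0.80) and Xcr1 (0.65). The part of any of these in the Hes1 and Esam values was not tested.

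The difference between the lineage effects of both systems was tested as CLP-cDC2 minus CDP-cDC2 less L-cDC2 minus M-cDC2. Hes1 passed, at -2.30 ± 0.53 (SE, limma adjusted p = 0.028), again 1 of 5 tested members, where 5.99% of all tested genes passed, 2.38% positive and 3.61% negative. Leaving out replicate 1 or 2 of CLP-cDC2, 3 of CDP-cDC2, or 2 or 3 of either L-cDC2 or M-cDC2 ended the call of Hes1 (limma adjusted p up to 0.072), with the difference between -2.35 and -2.12. With any single library left out, the difference lay between -2.81 and -1.80. Dtx1 (-0.82 ± 0.32, adjusted p = 0.14) and Esam (-1.11 ± 0.50, adjusted p = 0.19) did not pass.

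**Figure D2:**
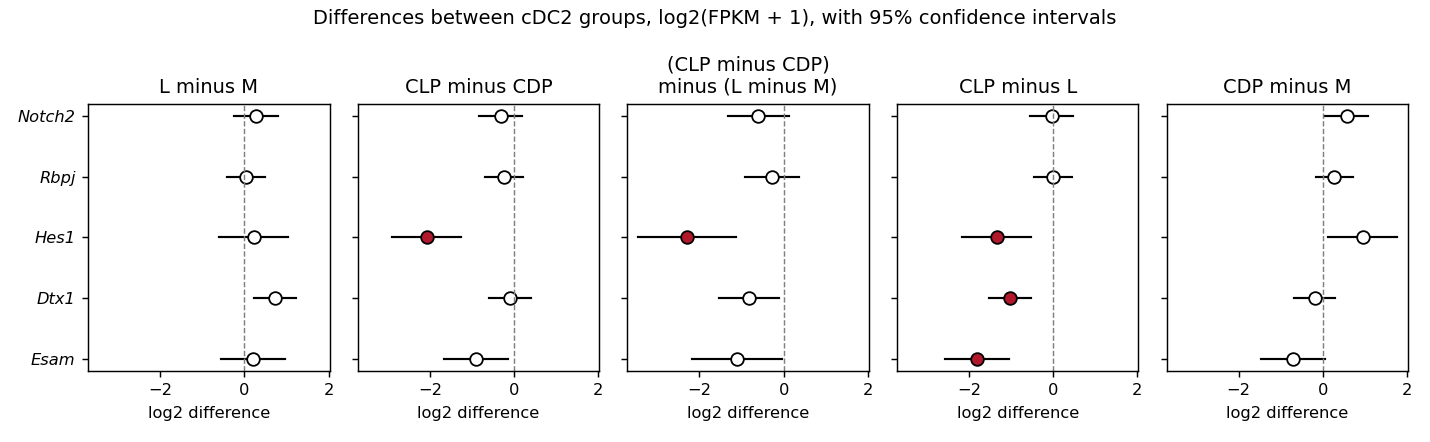
Log2 difference in log2(FPKM + 1) of the 5 tested members in the 5 comparisons (points) with 95% confidence intervals (lines); filled points have a limma adjusted p under 0.05. Hes1 is filled in CLP minus CDP (-2.08), in the difference of differences (-2.30) and in CLP minus L (-1.35), where Dtx1 (-1.02) and Esam (-1.81) are filled too.

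CLP-cDC2 were then set against L-cDC2, the groups the series asks about. Esam fell to 5.44 FPKM in CLP-cDC2, against 19.6 FPKM in L-cDC2 (log2 scale: -1.81 ± 0.35, SE, with limma adjusted p = 0.0068). Dtx1 fell to 43.5 FPKM in CLP-cDC2, against 87.7 FPKM in L-cDC2 (-1.02 ± 0.23, adjusted p = 0.014), and Hes1 to 2.39 FPKM in CLP-cDC2, against 7.55 FPKM in L-cDC2 (-1.35 ± 0.38, adjusted p = 0.040). Thus 3 of 5 tested members were called lower, where 6.32% of all tested genes were called lower, 4.29% higher and 10.6% in either direction. The libraries of these 3 did not overlap, as for 35.8% of tested genes. Notch2 (-0.04, 95% interval -0.56 to 0.48) and Rbpj (-0.00, -0.45 to 0.45) did not pass (limma adjusted p = 0.95 and 0.996), and their direction changed with the scaling. The Esam call held without any single library (adjusted p up to 0.028). That of Dtx1 was lost without CLP-cDC2 replicate 1 (adjusted p = 0.056) or L-cDC2 replicate 2 (0.075), and that of Hes1 without any of the 6 libraries of the 2 groups (0.054 to 0.13). The cells also differed in transfer, host and sort, so that these cannot be told apart from a difference between CLP-derived and reporter-labelled cells. Summed cDC2 markers, mostly Cd74 and H2-Ab1, were 13455 to 15275 FPKM in CLP-cDC2 against 18368 to 18924 FPKM in L-cDC2. B cell markers were 60.0 to 67.1 FPKM in CLP-cDC2, nearly all of it Cd79b, against 129 to 136 FPKM in L-cDC2. Cd79b stood at 57.0 to 58.8 FPKM in CLP-cDC2 and 53.6 to 61.3 FPKM in L-cDC2. Cd79a stood at 0.172 to 3.51 FPKM in CLP-cDC2 and 50.9 to 57.8 FPKM in L-cDC2. Of the tested cDC1 markers Clec9a and Irf8 were called higher in CLP-cDC2, 2 of 5. Markers of plasmacytoid dendritic cells, mostly Bst2, summed to 91.3 to 150 FPKM in CLP-cDC2 against 60.4 to 61.9 FPKM in L-cDC2. Bst2 was called higher in CLP-cDC2 (0.91, limma adjusted p = 0.032), 1 of 3 tested. The part of any of these in the 3 differences was not tested.

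CDP-cDC2 were set against M-cDC2, the tdTomato- cells of the reporter mice. None of the 5 tested members was called (0 of 5), where 2.58% of all tested genes were, 1.62% higher and 0.956% lower. At an unadjusted p under 0.05 there were Notch2 (0.56 ± 0.24, unadjusted p = 0.036, limma adjusted p = 0.21) and Hes1 (0.95 ± 0.38, unadjusted p = 0.026, limma adjusted p = 0.19). Of all 14538 tested genes, 2929 were under that unadjusted threshold. Esam stood at 10.8 FPKM in CDP-cDC2 and 17.0 FPKM in M-cDC2 (-0.70 ± 0.35, adjusted p = 0.28). Of the 6 members only Notch1 had libraries that did not overlap, as had 24.4% of tested genes. Without CDP-cDC2 replicate 1, Hes1 was called (1.46, adjusted p = 0.027), and with array weights too (1.35, adjusted p = 0.015). Of the tested cDC1 markers Cd8a, Irf8 and Xcr1 were called lower in CDP-cDC2, 3 of 5. Kdr, the only 1 of the 6 endothelial genes that was tested, was called higher (0.94). Red pulp macrophage genes summed to 31.0 to 77.9 FPKM in CDP-cDC2 and 11.03 to 13.72 FPKM in M-cDC2. None of the 4 tested was called. The cells also differed in transfer, host and sort. The part of any of these in the values of the members was not tested.

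The other genes of the ESAM-high cDC2 list were Cd4, the coreceptor carried by this subset, Clec4a4, the lectin DCIR2, the T-box factor Tbx21 and the cytokine subunit Il23a. In CLP-cDC2 against L-cDC2, 4 of the 5 tested genes of the list fell, namely Esam, Dtx1, Cd4 and Tbx21, where 6.32% of all tested genes were called lower. The list median was -1.39, against -0.00 over all genes tested, and Esam and Dtx1 are the members already given above. Cd4 had 3.91, 6.24 and 9.98 FPKM in CLP-cDC2 and 24.8, 23.3 and 24.8 FPKM in L-cDC2 (log2 scale: -1.79 ± 0.26, SE, with limma adjusted p = 9.4e-04). The CLP-cDC2 libraries all lay below those of the other groups, as they did for Hes1. Cd4 fell also against CDP-cDC2, which had 19.6, 36.4 and 27.8 FPKM (-1.94 ± 0.26, adjusted p = 7.6e-04), while L-cDC2 and M-cDC2, which had 21.7, 18.7 and 17.6 FPKM, differed by 0.32 ± 0.26 (adjusted p = 0.77). Each of these Cd4 calls held without any single library. Tbx21 averaged 17.8 ± 3.56 FPKM in CLP-cDC2 and 47.9 ± 4.73 FPKM in L-cDC2 (SD, n = 3 each), a difference of -1.39 ± 0.17 (SE, adjusted p = 3.3e-04), and like Dtx1 it was highest in L-cDC2, against 29.6 ± 2.93 FPKM in M-cDC2 (0.67 ± 0.17, adjusted p = 0.10). NK cells and T cells also use Tbx21, and NK markers summed to 1.69 to 12.4 FPKM in CLP-cDC2, 180 to 264 FPKM in L-cDC2 and 0.715 to 1.62 FPKM in M-cDC2. Their part in the Tbx21 level was not tested. Clec4a4 was the list's most abundant gene, at 150 ± 25.4, 132 ± 21.2, 193 ± 27.3 and 162 ± 20.7 FPKM in CLP-, CDP-, L- and M-cDC2. It was called in none of the 5 contrasts (limma adjusted p = 0.17 to 0.87). Il23a was under 1 FPKM in every library and was not tested. In CLP-cDC2 against CDP-cDC2 the list had 1 of 5 tested genes lower (Cd4), where 6.12% of all tested genes were, and a median of -0.37. In L-cDC2 against M-cDC2 it had none of 5 called, where 1.73% of all tested genes were, and a median of 0.32.

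The ESAM-low list held myeloid genes that this subset carries more of. In L-cDC2 against M-cDC2, 3 of its 7 tested genes fell, the chemokine receptor Ccr2 (-1.33), the LPS coreceptor Cd14 (-1.23) and the lysozyme Lyz2 (-1.36), where 0.44% of all tested genes fell, with a list median of -0.82 against 0.04 over all genes. With no filter on low values the calls of Ccr2 and Lyz2 were lost (limma adjusted p = 0.14 and 0.074). In the same comparison the cDC1 markers Clec9a, Irf8 and Xcr1 were called lower in L-cDC2, 3 of 5 tested. Ccr2 averaged 2.98 ± 0.83 FPKM in L-cDC2 and 8.93 ± 1.66 FPKM in M-cDC2 (SD, n = 3 each), and leaving out replicate 2 or 3 of L-cDC2, or 1 or 2 of M-cDC2, ended its call (limma adjusted p up to 0.15). In CLP-cDC2 against CDP-cDC2, Lyz2 (-2.91), Cd14 (-1.33) and the macrophage colony-stimulating factor receptor Csf1r (-1.86) fell and the inhibitory lectin Clec12a rose (1.02), 4 of 7, where 13.1% of all tested genes were called, with a list median of -0.74. Macrophages carry Lyz2, Cd14 and Csf1r too, and the red pulp macrophage genes C1qa (-2.02, limma adjusted p = 0.036) and Spic (-1.31, adjusted p = 0.014), 2 of 4 tested, fell with them. Their part in these differences was not tested. Lyz2 averaged 66.6 ± 32.6 FPKM in CLP-cDC2 and 476 ± 69.8 FPKM in CDP-cDC2, the widest gap of the list. Clec12a averaged 13.8 ± 1.14 FPKM in CLP-cDC2 and 6.62 ± 2.77 FPKM in CDP-cDC2, and its call was lost without CLP-cDC2 replicate 1 (adjusted p = 0.051), with no filter and with only the 2 groups in the fit (0.071 in both). Against L-cDC2 (5.65 ± 0.78 FPKM), Clec12a was the 1 gene of this list called in CLP-cDC2 (1.16 ± 0.24, adjusted p = 0.0090), and the list median was -0.08. The earlier results of the same libraries were known when both lists were drawn up, and the comparisons share control libraries, so the counts are descriptions.

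**Figure D3:**
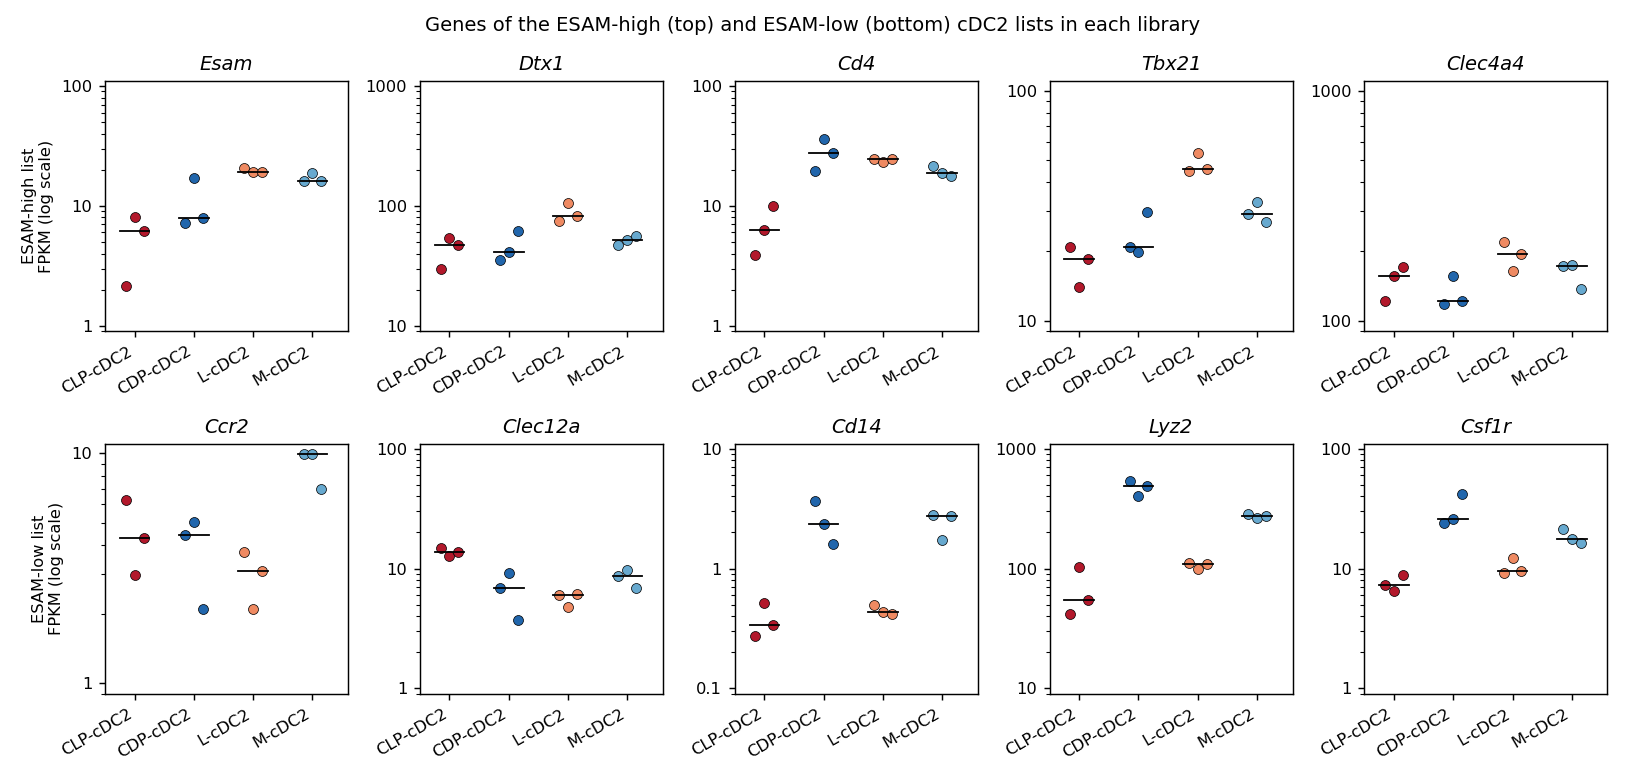
FPKM on log axes of 5 genes of the ESAM-high list (top) and 5 of the ESAM-low list (bottom) in each library (points, 3 a group, replicates 1 to 3 from left to right; lines are group medians). Esam, Cd4 and Tbx21 lie lower in CLP-cDC2 than in L-cDC2, Clec4a4 stays between 118 and 220 FPKM in all libraries, and Cd14, Lyz2 and Csf1r have every L-cDC2 point under the M-cDC2 points and every CLP-cDC2 point under the CDP-cDC2 points.

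Over the 7 lists of the Notch pathway, 47 of 70 genes were tested. In L-cDC2 against M-cDC2, 1 was higher and none lower (2.13% of those tested), in CLP-cDC2 against CDP-cDC2 1 was higher and 4 lower (10.6%), in CLP-cDC2 against L-cDC2 5 were lower (10.6%), and in CDP-cDC2 against M-cDC2 1 was higher (2.13%). In the difference of differences 1 was positive and 4 negative (10.6%), where 5.99% of all tested genes passed. In the other comparisons the shares called in either direction lie near those of all tested genes given above. In CLP-cDC2 against L-cDC2 the share was 10.6% for the lists and for all tested genes alike. All 5 list genes were lower, where 6.32% of all tested genes were called lower and 4.29% higher. With only 5 genes called, their direction is given as a description. Dtx1 and Hes1 among these 5 are members given above. None of the 5 ligands passed the filter, and Jag1 (0.366 FPKM) and Dll4 (0.225 FPKM) had the highest mean levels. All 15 genes of receptor glycosylation and cleavage were tested. The gamma-secretase subunits Psenen (92.7 FPKM) and Ncstn (33.8 FPKM) were the most abundant of them and were called in no contrast. Aph1c, another subunit, fell to 5.59 ± 0.67 FPKM in CLP-cDC2, against 9.87 ± 0.05 FPKM in CDP-cDC2 (-0.73, limma adjusted p = 0.0033). The fringe glycosyltransferase Rfng fell to 17.1 ± 4.93 FPKM in CLP-cDC2, against 33.1 ± 9.31 FPKM in L-cDC2 (-0.91, adjusted p = 0.017), a call lost without CLP-cDC2 replicate 1 or 2 or L-cDC2 replicate 2 (adjusted p up to 0.083).

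Of the trafficking genes 7 of 11 were tested, with the ubiquitin ligases Itch (8.47 FPKM) and Dtx3l (6.46 FPKM) the most abundant. Mib2, a ligase that acts on Notch ligands, fell to 1.74 ± 0.47 FPKM in CLP-cDC2, against 4.69 ± 1.23 FPKM in CDP-cDC2 (-1.05, limma adjusted p = 0.0055) and against 4.02 ± 1.05 FPKM in L-cDC2 (-0.87, adjusted p = 0.016, lost without CLP-cDC2 replicate 3 or L-cDC2 replicate 2, adjusted p up to 0.084). None of the 7 tested nuclear activators was called in any of the 5 contrasts, and Snw1 (20.3 FPKM) and Kat2a (9.60 FPKM) led them. Of 12 tested repressors, the histone deacetylase Hdac1 rose to 91.5 ± 10.5 FPKM in CLP-cDC2, against 59.2 ± 2.0 FPKM in CDP-cDC2 (0.61, adjusted p = 0.0037). Its relative Hdac2 (19.7 FPKM) was called in no contrast. The Groucho corepressor Tle1 stood at 0.57 ± 0.14 FPKM in CLP-cDC2 and 1.54 ± 0.28 FPKM in CDP-cDC2 (-0.69, adjusted p = 0.019), a call lost without CLP-cDC2 replicate 2 or CDP-cDC2 replicate 2 or 3 (adjusted p up to 0.079). The corepressor Ncor1 rose to 10.8 ± 0.36 FPKM in CDP-cDC2, against 5.14 ± 0.95 FPKM in M-cDC2 (0.96, adjusted p = 0.0071), a call lost with the 2 groups alone in the fit and when replicate 3 of both groups was left out.

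Of 12 Notch targets 5 were tested, and Hes5, Hey1, Hey2, Heyl, Nrarp, Ptcra and Il2ra did not pass the filter. The cyclin Ccnd1 was the most abundant, at 116 FPKM over all libraries, and was called in no contrast. Gata3, a transcription factor of T cells and innate lymphoid cells, rose to 1.27 ± 0.10 FPKM in L-cDC2, against 0.14 ± 0.12 FPKM in M-cDC2 (0.99, limma adjusted p = 0.0029). It was lower in CLP-cDC2, at 0.42 ± 0.15 FPKM, than in L-cDC2 (-0.68, adjusted p = 0.015), a call lost without CLP-cDC2 replicate 1 or L-cDC2 replicate 2 (adjusted p up to 0.062). T cell and NK cell markers were highest in the same L-cDC2 libraries, and their part in the Gata3 level was not tested.

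**Figure D4:**
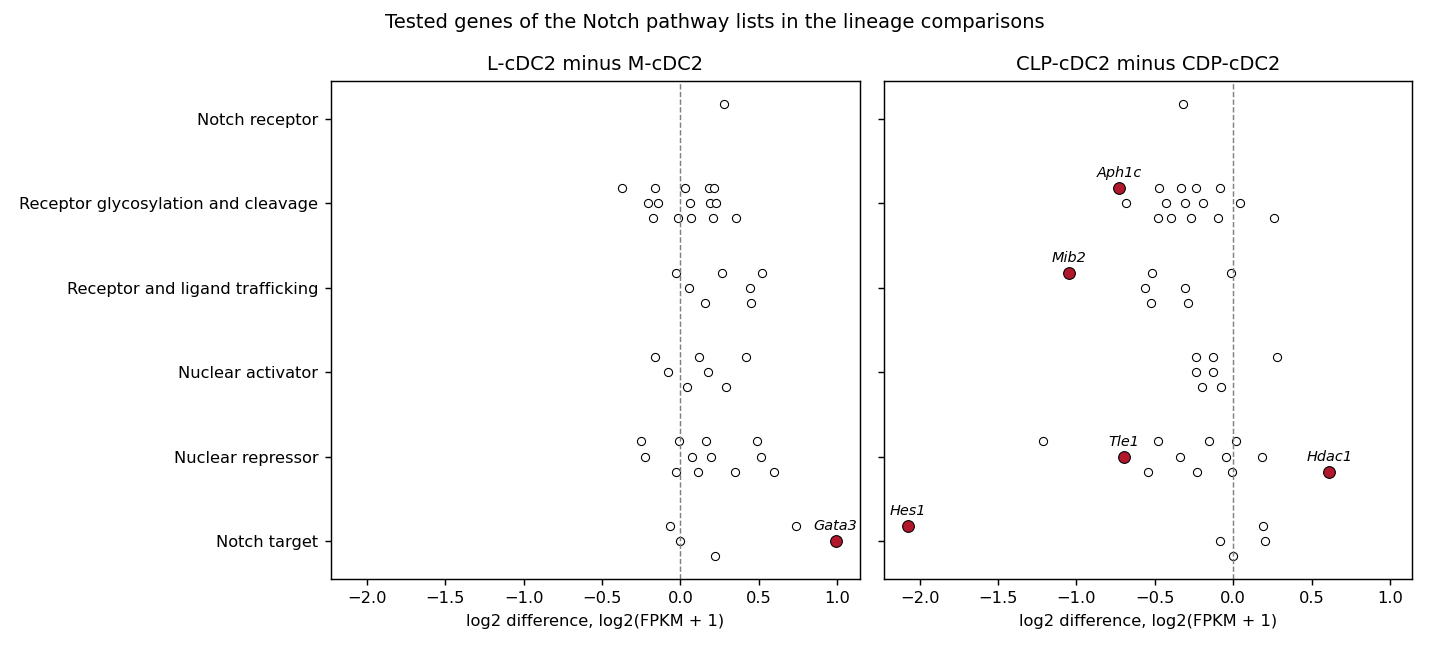
Log2 difference in log2(FPKM + 1) of each tested gene of 6 Notch pathway lists (points; rows are lists, vertical offsets only separate points) in L-cDC2 minus M-cDC2 (left) and CLP-cDC2 minus CDP-cDC2 (right). Filled, named points have a limma adjusted p under 0.05: Gata3 on the left, and Hes1, Mib2, Aph1c and Tle1 (lower) and Hdac1 (higher) on the right.

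By similarity of profile over the 12 libraries, among 5802 protein-coding genes, Esam was nearest to Slamf7, Slc46a3 and Mmp12 (Pearson r = 0.96, 0.95 and 0.94 of log2(FPKM + 1)). Dtx1 was nearest to Cd82, Rgs12 and Sh2d3c (0.94, 0.90 and 0.88), and Hes1 to H2-Eb2, Rnf130 and Srsf9 (0.93, 0.92 and 0.91). Notch2 was nearest to Dcaf7, Brpf1 and Pip5k1c (0.97, 0.96 and 0.96), and Rbpj to Dnm1l, Acox3 and Setdb2 (0.95, 0.94 and 0.92). None of the nearest genes was shared by 2 members. Between members, Esam went with Dtx1 (0.68) and Hes1 (0.60) and ran against Notch2 (-0.35). After group means were removed these values were 0.46, 0.69 and -0.51. The libraries fall into 4 groups, each with its own sort, so these values describe the profiles only.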

How the data were processed

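Per the labels' protocols, SMART-Seq HT and Nextera XT kits turned the RNA of 12 spleen cDC2 samples into libraries. The authors deposited a table of FPKM for 55322 genes with a gene length for each. FPKM times length in kilobases summed to the same total in every library. The submitters' processing notes name STAR 2.7.9a, DESeq2 1.20.0 and featureCounts 2.0.1, the trimmers cutadapt 3.7, Trimmomatic 0.39 and Trim Galore 0.6.7, and the builds GRCm38 and GRCh38, all without roles. The sources used here give no strand setting for counting. GENCODE M21 on GRCm38 shared 52046 gene identifiers with the deposited data, and 1462 of them had the deposited chromosome and start, so gene positions are given as deposited with no build. Depth was computed from the commonest low value of FPKM times length, taken as 1 read. Reads recovered this way need not be whole, and are given as computed.

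Values were analysed as log2(FPKM + 1) with limma 3.58.1 (R 4.3.3), two-sided, with a trended prior and 1 mean for each of the 4 groups, which left 8 residual degrees of freedom over the 12 libraries. Genes at 1 FPKM or more in at least 3 libraries entered (14538 genes). Benjamini-Hochberg adjustment ran over all of them, and a gene was called under an adjusted p-value of 0.05. The pseudocount of 1 understates the change of genes with low FPKM. Exact permutation tests served for single values, run over samples. The fit was checked on simulated data. The members and lists were chosen with earlier results of these data known. From the lists, the text names genes called in any contrast and the 2 of highest mean FPKM. For each tested member it names the 3 protein-coding genes (mean of at least 5 FPKM) of most similar profile by Pearson correlation.

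Alternatives were pseudocounts of 0.1 and 5, no filter, a filter of 5 FPKM, quantile and median-of-ratios scaling, fits of the 2 groups alone, a replicate block, array weights, no trend, voom on recovered reads and each library left out in turn, with the same genes tested. Leaving out replicate 3 of both CDP-cDC2 and M-cDC2 was added after seeing the data. Deviations from group means of libraries with the same replicate number correlated at -0.43 to 0.28, and the labels name no shared animal, so the numbers were not taken to pair samples. No 2 libraries of a group shared values (0% of values above 0 were equal). Promoter sequences are RefSeq's on GRCm38.p6. Figures were drawn with matplotlib 3.10.9. The result of 1 marker gene is not reported here.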

Additional observations from a re-analysis of the deposited data

Results flagged for a closer look

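The lineage difference of 11 genes of the Notch and ESAM lists, and of 18 marker genes given here, differed between the transfer system and the reporter mice. The limma test was of the difference itself (adjusted p under 0.05), here CLP-cDC2 minus CDP-cDC2 less L-cDC2 minus M-cDC2 in log2(FPKM + 1). Of all tested genes 5.99% passed. The 11 were 5 of 47 tested Notch pathway genes, 2 of 5 tested ESAM-high genes, and 2 positive and 2 negative of 7 tested ESAM-low genes. Hes1 stood at -2.30, with -2.08 after transfer and 0.22 in reporter mice. Cd4 stood at -2.26, with -1.94 and 0.32, and held without any single library (adjusted p up to 0.020). Tbx21 stood at -1.05, Mib2 at -1.10, Ncor1 at -0.83 and Gata3 at -0.80. Lyz2 stood at -1.55, with -2.91 after transfer and -1.36 in reporter mice, and Csf1r at -1.09, with -1.86 and -0.78, the last of which was not called (adjusted p = 0.11). Clec12a stood at 1.53, Ccr2 at 1.52 and Hdac1 at 0.62. Apart from Cd4, each of these 11 lost its call without at least 1 library, with the highest adjusted p between 0.062 (Lyz2) and 0.12 (Csf1r and Gata3). Of the marker genes, which were not refitted under the alternatives, the cDC2 markers Sirpa (-1.74), Zbtb46 (-1.11), Itgam (-1.24), Itgax (-1.45) and Cd74 (-0.74) were negative, 5 of 8 tested. The cDC1 markers Cd8a (1.74), Clec9a (1.91), Irf8 (2.04) and Xcr1 (1.75) were positive, 4 of 5 tested. The NK cell genes Gzma (-5.81), Nkg7 (-4.80), Ncr1 (-2.75) and Prf1 (-2.30) were negative, 4 of 5 tested. So were the B cell genes Cd79a (-5.18) and Fcrl5 (-1.80), the plasma cell gene Mzb1 (-3.15), the T cell gene Trbc2 (-2.56) and the endothelial gene Kdr (-1.14).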

How the results depend on the processing

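With no filter on low values, genes called numbered 1067 for CLP-cDC2 minus CDP-cDC2, 947 for CLP-cDC2 minus L-cDC2, 103 for CDP-cDC2 minus M-cDC2 and 255 for the difference of differences (1910, 1542, 375 and 871 in the main analysis), and members called fell to 1 for CLP-cDC2 minus L-cDC2 (Esam) and 0 for the difference of differences. With array weights they numbered 2480, 2022 and 2044 for CLP-cDC2 minus L-cDC2, CDP-cDC2 minus M-cDC2 and the difference of differences and 838 for L-cDC2 minus M-cDC2 (main 252), and members called were 2 for CLP-cDC2 minus CDP-cDC2, 2 for the difference of differences, 1 for CDP-cDC2 minus M-cDC2 and 1 for L-cDC2 minus M-cDC2. With only the 2 groups in the fit, 687 genes were called for CLP-cDC2 minus CDP-cDC2, 47 for CDP-cDC2 minus M-cDC2, and 1 member for L-cDC2 minus M-cDC2 (Dtx1). A filter of 5 FPKM gave 137 genes for L-cDC2 minus M-cDC2, and voom gave 668 for CDP-cDC2 minus M-cDC2. The replicate block gave 477 for the difference of differences and 186 for CDP-cDC2 minus M-cDC2 and changed no call of a member. When replicate 3 of both CDP-cDC2 and M-cDC2 was left out, 2665 genes were called for CLP-cDC2 minus L-cDC2, 101 for CDP-cDC2 minus M-cDC2, 462 for the difference of differences, and 0 members for the last. Leaving out each library in turn gave 983 to 1970 genes for CLP-cDC2 minus CDP-cDC2, 640 to 1108 for CLP-cDC2 minus L-cDC2, 74 to 589 for CDP-cDC2 minus M-cDC2, 312 to 1238 for the difference of differences and 181 to 206 for L-cDC2 minus M-cDC2. Members called ranged from 1 to 2 for CLP-cDC2 minus L-cDC2, 0 to 1 for CDP-cDC2 minus M-cDC2 and 0 to 1 for the difference of differences. The cause was not tested.

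Beyond the calls named beside their results, Dtx1 in CLP-cDC2 minus L-cDC2 lost its call with no filter (limma adjusted p = 0.075) and Hes1 with no filter (0.16), a pseudocount of 5 (0.099), quantile normalization (0.054) and voom (0.051), while Esam kept its call in all 18 alternatives. Of the list genes, Mib2 and Rfng in CLP-cDC2 minus L-cDC2 lost their calls with no filter (0.055 and 0.078), Gata3 there with a pseudocount of 0.1 (0.083) and Tle1 in CLP-cDC2 minus CDP-cDC2 with only the 2 groups in the fit (0.066). In the difference of differences, 10 of 11 list genes lost their call with no filter (all but Cd4, adjusted p = 0.071 to 0.17) and 7 with the replicate block (0.051 to 0.088). Every change of direction was of a difference that was not called. Dtx1 in CLP-cDC2 minus CDP-cDC2 turned to 0.0064 with array weights, 0.14 without CDP-cDC2 replicate 3, alone or with M-cDC2 replicate 3, and 0.16 without CLP-cDC2 replicate 1 (single libraries: -0.25 to 0.16). Notch2 in CLP-cDC2 minus L-cDC2 turned to 0.057 with array weights and 0.041 after quantile normalization, and ranged from -0.16 to 0.12 without single libraries (0.07 without CLP-cDC2 replicate 2). Rbpj in CLP-cDC2 minus L-cDC2 turned to 0.047, 0.0028, 0.083 and 0.029 with array weights, median-of-ratios scaling, quantile normalization and voom, and ranged from -0.086 to 0.092 without single libraries (0.07 without CLP-cDC2 replicate 2). Rbpj in L-cDC2 minus M-cDC2 turned to -0.060, -0.0065 and -0.085 with array weights, median-of-ratios scaling and quantile normalization, to -0.06 without L-cDC2 replicate 2 and to -0.094 without M-cDC2 replicate 3, alone or with CDP-cDC2 replicate 3 (single libraries: -0.094 to 0.16). Without these 2 libraries it also turned to 0.081 in the difference of differences and -0.083 in CDP-cDC2 minus M-cDC2. Where a group kept 2 libraries, the spread was pooled over all groups. Notch1 rested on as few as 29.5 reads.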
